A study of Mus musculus with 6 samples.

Results

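The genes described here are 44 regulators of the cell cycle and of DNA replication, chosen by name as well-known members of both processes. Of these, 43 were among the 13659 gene symbols of the deposited table, and Cdt1 is not analysed here. They were divided by the phase in which they act or peak into 22 G1/S genes (D and E cyclins with their kinases, pocket proteins, origin licensing, nucleotide supply) and 21 G2/M genes (A and B cyclins, mitotic kinases, spindle checkpoint, kinetochore). All 43 passed the filter on low values, a mean of at least 1 FPKM (fragments mapped to a transcript, scaled to its length and to the mapped fragments of the library) over the 6 libraries.

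RNA-seq was made from cultured MC3T3-E1 cells of subclone 4, a mouse calvaria line that resembles osteoblasts, kept in serum. There were 3 libraries of cells treated with PTH(1-34), an agonist peptide from the amino end of parathyroid hormone, and 3 libraries of cells given vehicle, numbered 1 to 3 in each group. The time of treatment is 30 min in one label and 2 h in another, so it is uncertain for every value below. Whether libraries of 1 group were grown as separate cultures is not stated, so each p-value reflects only the spread between these libraries, which may be technical. The cells expressed osteoblast markers, which cannot tell the line or its subclone. Of 9 osteoblast markers 8 were in the table, all 8 at a mean of at least 1 FPKM. Their summed level was 875 to 973 FPKM in PTH libraries and 880.0 to 960.0 FPKM in vehicle libraries. Of 20 markers of adipocytes, muscle, macrophages and endothelium, 5 were in the table, and Cd14 alone reached a mean of 1 FPKM.

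In cycling cells, D cyclins with Cdk4 and Cdk6, and then E cyclins with Cdk2, inactivate the pocket proteins of the Rb family and release E2F factors, which switch on genes for DNA replication. A later wave of genes, repressed in G1 by the DREAM complex of pocket proteins, E2f4 and MuvB and activated in G2 by MuvB with B-Myb and FoxM1, supplies the kinases, motors and checkpoint proteins of mitosis. PTH signals in osteoblasts mainly through cyclic AMP and protein kinase A, and it has been reported both to slow and to promote osteoblast proliferation, depending on the cells and the exposure. In bulk RNA, fewer cells in a phase and less of an RNA per cell cannot be told apart.

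The promoters were searched for the letters known to mark the 2 waves, and 5 of them are shown: G2/M genes with large and with small differences, and a licensing gene. The CHR element (TTTGAA) and the CCAAT box (CCAAT) are the known marks of G2/M promoters, and the E2F site (searched as TTTGGCGC or TTTCGCGC) that of G1/S promoters. Promoters of 33 members were found in RefSeq (build GRCm38.p6) as windows of 250 bases before to 50 bases after the gene's start, and both strands were searched. TTTGAA occurred in 11 of 16 G2/M promoters and in 1 of 17 G1/S promoters, against 18.1% of all 27025 genes with an entry. CCAAT occurred in 15 of 16 G2/M promoters and 9 of 17 G1/S promoters, against 37.9% of all genes. The E2F letters were in 1 of 16 G2/M promoters and 5 of 17 G1/S promoters, against 0.833% of all genes, and the cyclic AMP response element (TGACGTCA), which reads the same on both strands, was in 1 G2/M promoter (Cenpe) and 1 G1/S promoter (Mcm5), against 1.88%. A match describes the sequence and is not a measured binding site. In the windows below, which end at the base before the start and read 5′ to 3′ on the gene's strand, capitals mark these CHR, CCAAT and E2F letters, with TTCAAA and ATTGG as the CHR and CCAAT letters of the other strand. The windows are Cdc20 at chr4:118437344-118437463 (minus strand), Mki67 at chr7:135716380-135716579 (minus), Cdk1 at chr10:69352913-69353032 (minus), Top2a at chr11:99024190-99024309 (minus) and Mcm6 at chr1:128359706-128359825 (minus).
Cdc20: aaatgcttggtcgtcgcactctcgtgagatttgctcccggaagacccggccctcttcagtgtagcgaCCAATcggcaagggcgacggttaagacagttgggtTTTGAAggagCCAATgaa
Mki67: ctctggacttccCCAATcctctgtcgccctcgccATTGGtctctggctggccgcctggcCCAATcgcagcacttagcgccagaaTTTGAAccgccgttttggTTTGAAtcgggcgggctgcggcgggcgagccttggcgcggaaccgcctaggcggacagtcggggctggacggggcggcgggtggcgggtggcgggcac
Cdk1: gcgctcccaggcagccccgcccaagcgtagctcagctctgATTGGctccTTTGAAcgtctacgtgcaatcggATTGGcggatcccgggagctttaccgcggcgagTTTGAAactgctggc
Top2a: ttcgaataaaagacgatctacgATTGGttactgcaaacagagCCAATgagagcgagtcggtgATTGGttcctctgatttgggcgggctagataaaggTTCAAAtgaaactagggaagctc
Mcm6: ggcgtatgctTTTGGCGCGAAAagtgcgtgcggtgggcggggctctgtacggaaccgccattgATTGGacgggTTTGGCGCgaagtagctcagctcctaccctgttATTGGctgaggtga
In Mcm6 the first run of capitals holds a pair of E2F matches on opposite strands that overlap. Cdc20 and Mki67 are among the genes that fell most with PTH, and Cdk1 and Top2a are those with the smallest G2/M differences. These G2/M windows were picked from genes with large and with small differences, and not strictly by size. Aurka, Plk1 and Cenpf fell more than Mki67 but are not shown, and their CHR letters lie after the start. Each G2/M window shown holds CHR letters before the start, so the windows do not stand for all G2/M promoters. Whether the letters go with the size of the difference was not tested.

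Most G2/M genes fell with PTH in the values as deposited, with the largest falls in Aurka, Cdc20, Plk1 and Cenpf, and most G1/S genes fell, mostly by smaller amounts, while 2 rose. Of the G2/M genes, 16 of 21 fell and 0 rose, against 41.0% of all 11628 tested genes that fell and 10.8% that rose (limma, adjusted p under 0.05). The median G2/M difference was -0.57 on the log2(FPKM + 0.5) scale, which understates changes of low genes, against -0.15 for all tested genes. Of 22 G1/S genes, 14 fell and 2 rose, with a median difference of -0.21. The deposited values of PTH libraries lay lower for most genes (median FPKM of tested genes 10.8 to 10.9 in PTH libraries and 11.8 to 11.9 in vehicle libraries), and after centring of the libraries on their medians every difference was 0.12 higher. With centred values 10 G2/M genes fell and 0 rose, and 5 G1/S genes fell and 3 rose, against 24.0% lower and 18.3% higher among all genes. The G2/M median was then -0.45 and the G1/S median -0.08, against -0.03 for all tested genes. In this scaling 22.7% of G1/S genes fell, a share near the background, and 47.6% of G2/M genes.

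Libraries of the same number deviated together from their group means, with a correlation across genes of 0.28 to 0.42 (deviations across all tested genes). Every one of the 21 G2/M genes was highest in library 1 of both groups, as were 22.9% of all tested genes and 5 of 22 G1/S genes. The median G2/M gene stood 0.41 higher in PTH 1 than in PTH 2 and 3, and 0.36 higher in vehicle 1 than in vehicle 2 and 3 (log2 scale). What sets the number-1 libraries apart was not tested. Compared within each number, all 21 G2/M genes were lower with PTH in all 3 numbers, as were 60.4% of all tested genes. With centred values 20 of 21 were, against 41.4% of all. With the library number as a block, 20 of 21 G2/M genes fell (background 50.0% lower and 13.8% higher), and 19 of 21 with block and centring (background 30.9% lower and 24.9% higher). The G1/S genes then gave 15 falls and 3 rises, and 8 falls and 3 rises with centring. Without the block, the count of 16 G2/M falls changed with the library left out. It was 9 without PTH 2, 9 without PTH 3 and 10 without vehicle 1, where 34.3%, 34.8% and 36.2% of all tested genes fell. It was 20 without PTH 1, 16 without vehicle 2 and 15 without vehicle 3, where the share of all genes was not counted. Leaving out both number-1 libraries, 19 G2/M genes fell as deposited (36.2% of all tested genes) and 14 with centring (19.0% of all; a setting chosen after seeing the data).

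**Figure D1:**
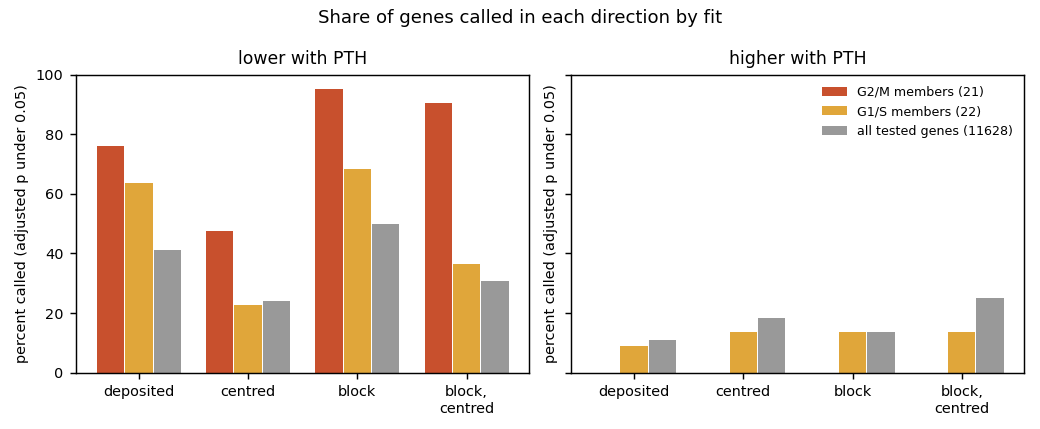
Percent of G2/M members, G1/S members and all tested genes called lower (left) or higher (right) with PTH at a limma adjusted p under 0.05, in 4 fits: deposited values, median-centred values, and both with the library number as a block. G2/M bars for lower calls stand above the bars of all genes in each fit (47.6% against 24.0% with centred values), and no G2/M member was called higher.

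Of the 4 mitotic kinase and passenger genes 3 fell, against 41.0% of all tested genes. Aurka had the largest difference of all members. Aurka, which encodes the Aurora A kinase of centrosomes and spindle poles (chromosome 2, 172356190 to 172370535, minus strand, mm10), had 8.71, 5.38 and 5.70 FPKM in PTH libraries, against 22.5, 15.1 and 15.8 FPKM in vehicle libraries. The groups did not overlap, and even the highest PTH value, in library 1, lay far below the lowest vehicle value. Its mean was 6.60 ± 1.84 FPKM with PTH and 17.8 ± 4.12 FPKM with vehicle (SD, n = 3 each), so PTH cells held 37.0% of the vehicle level. The log2 difference was -1.37 (SE 0.21, limma adjusted p = 0.00210), and -1.25 with centred values (adjusted p = 0.00400). Within the numbers it was -1.32, -1.40 and -1.40, so the 3 pairs were close to each other although the libraries of a group were not.

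Plk1, the polo-like kinase that acts from mitotic entry to cytokinesis (chromosome 7, 122159439 to 122169873, plus strand), had 11.1, 6.35 and 6.85 FPKM with PTH, against 22.04, 14.5 and 14.9 FPKM with vehicle. Library 1 was highest in both groups and the groups did not overlap. The log2 difference was -1.05 (SE 0.24, limma adjusted p = 0.0100), and -0.93 with centred values. Aurkb, the Aurora kinase of the chromosomal passenger complex, had lower values with PTH in each number: 19.7, 13.5 and 14.96 FPKM with PTH, against 24.3, 20.0 and 22.1 FPKM with vehicle, a log2 difference of -0.47 (SE 0.14, adjusted p = 0.0303) that did not pass with centred values (adjusted p = 0.0870). It also did not pass without PTH 2, PTH 3, vehicle 1 or vehicle 3 (largest adjusted p = 0.0900). Aurkb passed with the block (adjusted p = 0.00137) and with block and centring (adjusted p = 0.00440). Birc5, which encodes survivin, the partner of Aurora B in that complex, averaged 42.8 ± 7.999 FPKM with PTH and 55.5 ± 8.47 FPKM with vehicle (SD, n = 3 each) and did not pass (limma adjusted p = 0.0814), but it did with the block (adjusted p = 0.000867) and without PTH 1 (adjusted p = 0.0250).

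All 4 spindle checkpoint and exit genes fell (41.0% of all tested genes), 3 of them also with centred values (24.0% of all). Cdc20, the activator of the anaphase-promoting complex that ends metaphase (chromosome 4, 118432901 to 118437352, minus strand), had 11.7, 7.75 and 8.21 FPKM with PTH, against 27.7, 19.9 and 20.3 FPKM with vehicle. The highest PTH value, 11.7 FPKM, lay below the lowest vehicle value, 19.9 FPKM. PTH cells held 40.8% of the vehicle mean, a log2 difference of -1.25 (SE 0.18, limma adjusted p = 0.00166) and -1.13 with centred values (adjusted p = 0.00319). Bub1b, which encodes the checkpoint protein BubR1, an inhibitor of Cdc20, had 13.4, 9.93 and 9.37 FPKM with PTH, against 21.96, 17.2 and 16.7 FPKM with vehicle (log2 -0.75, SE 0.16, adjusted p = 0.00705). Ttk, the checkpoint kinase Mps1, was lowly expressed and tight, with 3.97, 3.63 and 3.76 FPKM in PTH libraries, against 6.59, 5.88 and 5.89 FPKM in vehicle libraries (log2 -0.63, SE 0.07, adjusted p = 0.000503). With centred values Bub1b passed at an adjusted p of 0.0173 and Ttk at 0.00141. Bub1, the kinase that recruits checkpoint proteins to kinetochores, fell by 0.48 on the log2 scale (SE 0.14, adjusted p = 0.0277) and did not pass with centred values (adjusted p = 0.0820) or without PTH 2, PTH 3 or vehicle 1. With block and centring it passed (adjusted p = 0.00484).

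Kinetochore and motor genes followed. Cenpf, a large kinetochore protein of G2 and mitosis, had 6.30, 3.66 and 3.64 FPKM with PTH, against 10.4, 8.09 and 9.32 FPKM with vehicle, which is 48.9% of the vehicle mean (log2 -0.99, SE 0.20, limma adjusted p = 0.00663). Cenpe, the kinesin that brings chromosomes to the metaphase plate, had 7.52, 5.16 and 6.03 FPKM with PTH, against 12.3, 9.33 and 9.41 FPKM with vehicle (log2 -0.69, SE 0.15, adjusted p = 0.00942). Neither gene's groups overlapped, and both passed with centred values (adjusted p = 0.0135 for Cenpf and 0.0234 for Cenpe). Kif20a, a kinesin of the central spindle needed for cytokinesis, had 11.6, 7.13 and 7.99 FPKM with PTH, against 19.3, 12.9 and 12.6 FPKM with vehicle (log2 -0.72, SE 0.22, adjusted p = 0.0303). It did not pass with centred values (adjusted p = 0.0643), nor without PTH 2, PTH 3 or vehicle 1. It passed with block and centring (adjusted p = 0.000310). Kif11, the kinesin Eg5 that pushes spindle poles apart, averaged 20.8 ± 2.60 FPKM with PTH and 27.1 ± 4.51 FPKM with vehicle (SD, n = 3 each) and did not pass (adjusted p = 0.0560), but it did with the block (adjusted p = 0.00292) and without PTH 1 (adjusted p = 0.0391).

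**Figure D2:**
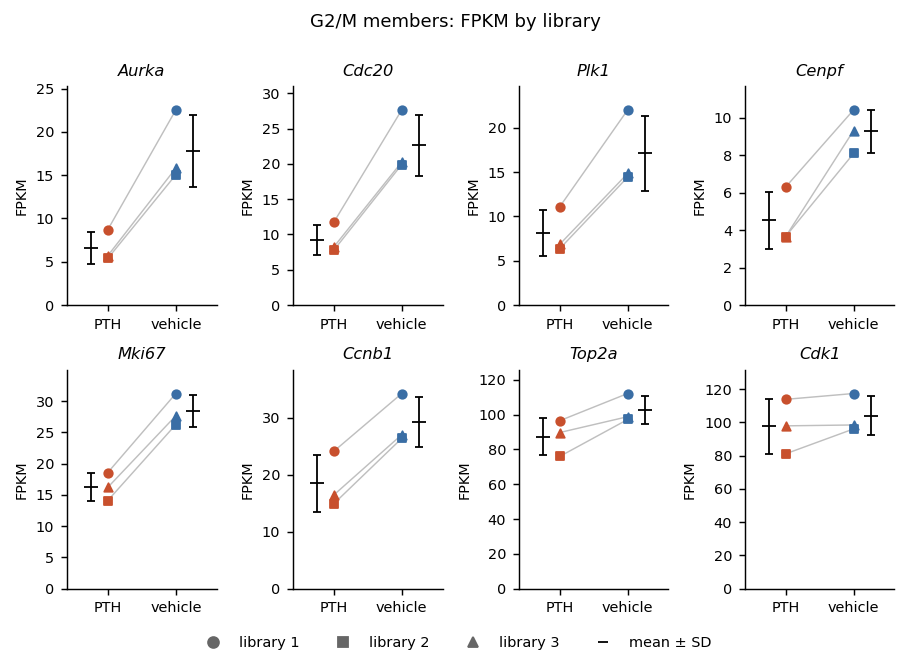
FPKM of 8 G2/M members in each library, PTH on the left and vehicle on the right of each panel, with grey lines joining libraries of the same number and bars for the mean ± SD of 3 libraries. Lines of Aurka, Cdc20 and Plk1 are steep and nearly parallel, with library 1 on top in both groups, while those of Cdk1 are nearly flat (113.8, 81.0 and 97.9 FPKM with PTH; 117.3, 96.0 and 98.4 FPKM with vehicle).

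Among the A and B cyclins and the regulators of their kinase, 5 of 7 fell (Ccna2, Ccnb1, Cdc25b, Cdc25c and Wee1), against 41.0% of all tested genes. Ccnb2 and the kinase gene Cdk1 did not pass. Ccnb1, the cyclin B1 that drives entry into mitosis, had 24.1, 14.9 and 16.4 FPKM with PTH, against 34.2, 26.4 and 27.0 FPKM with vehicle (log2 -0.67, SE 0.19, limma adjusted p = 0.0225). With centred values its adjusted p was 0.0516, and it was 0.0647 to 0.0723 without PTH 2, PTH 3 or vehicle 1. Ccnb1 passed with block and centring (adjusted p = 0.000903). Ccna2, the cyclin of S phase and G2, averaged 34.5 ± 5.21 FPKM with PTH and 47.7 ± 5.97 FPKM with vehicle (SD, n = 3 each; log2 -0.47, SE 0.13, adjusted p = 0.0221). Ccnb2, a second B cyclin, averaged 15.3 ± 5.72 FPKM with PTH and 19.9 ± 5.15 FPKM with vehicle (SD, n = 3 each). Ccna2 did not pass with centred values (adjusted p = 0.0692) or without PTH 2, PTH 3 or vehicle 1. With block and centring it passed (adjusted p = 0.00270). Ccnb2, whose groups overlapped, did not pass as deposited (adjusted p = 0.263), but it did with the block (adjusted p = 0.00613) and without PTH 1 (adjusted p = 0.0394).

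Cdc25b and Cdc25c encode phosphatases that remove the inhibitory phosphates from Cdk1. Cdc25b had 13.0, 9.12 and 9.62 FPKM with PTH, against 18.3, 14.2 and 15.1 FPKM with vehicle (log2 -0.57, SE 0.15, limma adjusted p = 0.0174; 0.0466 with centred values). It did not pass without PTH 2 or PTH 3. Cdc25c had 4.57, 3.22 and 3.58 FPKM with PTH, against 7.56, 5.05 and 5.10 FPKM with vehicle (log2 -0.57, SE 0.18, adjusted p = 0.0335), and it did not pass with centred values (adjusted p = 0.0821) or without PTH 2, PTH 3 or vehicle 1. It passed with block and centring (adjusted p = 0.00228). Wee1, the kinase that adds those phosphates and so opposes Cdc25, also fell: 6.17, 5.77 and 5.28 FPKM with PTH, against 8.001, 7.41 and 7.57 FPKM with vehicle (log2 -0.39, SE 0.07, adjusted p = 0.00347; 0.0185 with centred values). The genes of both the activating and the inhibiting enzymes were thus lower with PTH. Cdk1, the mitotic kinase they act on, averaged 97.6 ± 16.4 FPKM with PTH and 103.9 ± 11.7 FPKM with vehicle (SD, n = 3 each). Its log2 difference of -0.10 (SE 0.13, adjusted p = 0.571; 0.153 with the block) changed sign to 0.03 with centred values.

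Mki67, the proliferation marker that coats mitotic chromosomes, had 18.6, 14.1 and 16.2 FPKM with PTH, against 31.2, 26.2 and 27.6 FPKM with vehicle. The groups did not overlap, and PTH cells held 57.4% of the vehicle mean (log2 -0.79, SE 0.11, limma adjusted p = 0.00134; 0.00322 with centred values). Top2a, the topoisomerase that untangles sister chromatids, averaged 87.4 ± 10.5 FPKM with PTH and 102.7 ± 8.20 FPKM with vehicle (SD, n = 3 each; log2 -0.24, SE 0.10, adjusted p = 0.0852). It passed with the block (adjusted p = 0.00711) and without PTH 1 (adjusted p = 0.0419), and did not pass with block and centring (adjusted p = 0.0937). A two-sided exact permutation test on single genes cannot go below p = 0.1 with 3 libraries a group, and it gave that value wherever the groups did not overlap. All PTH libraries lay below all vehicle libraries in 18 of 21 G2/M genes and 15 of 22 G1/S genes, against 47.5% of all tested genes, and above them in 0 of 21 and 2 of 22, against 13.1% of all.

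**Figure D3:**
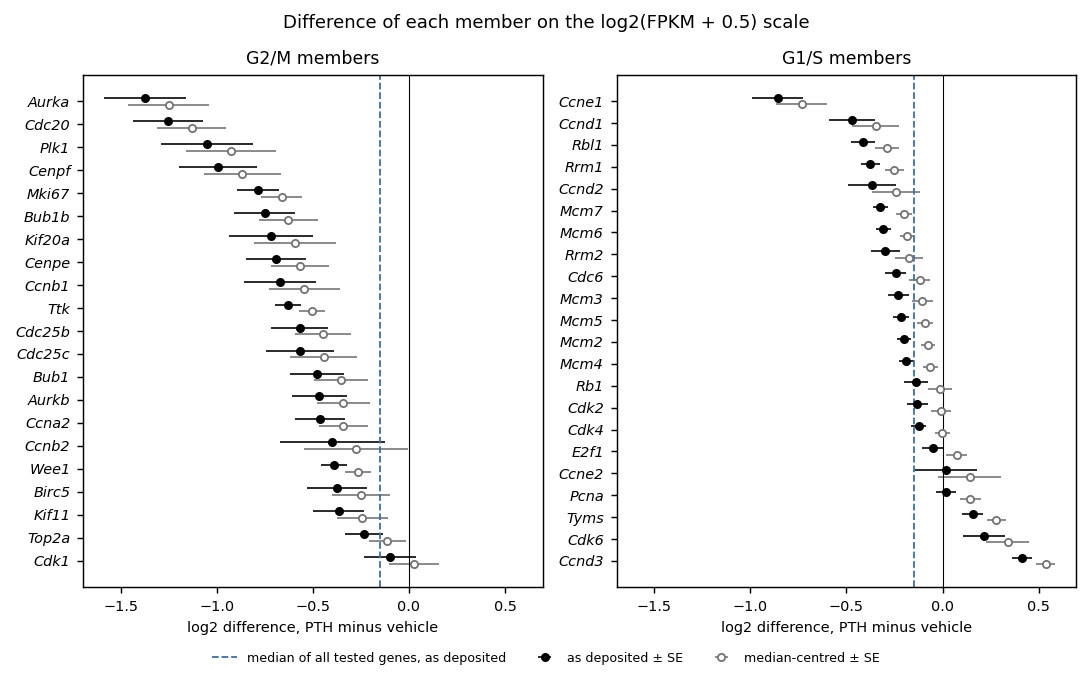
Log2 difference (PTH minus vehicle, log2(FPKM + 0.5)) of each G2/M member (left) and G1/S member (right) with its SE from the limma fit, filled points for deposited values and open points for median-centred values; the dashed line is the median of all tested genes as deposited (-0.15). All G2/M points except Cdk1 lie to the left of that line as deposited, from Aurka at -1.37 to Top2a at -0.24, while G1/S points run from Ccne1 at -0.86 to Ccnd3 at 0.41.

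The D cyclins, the growth-factor-responsive partners of Cdk4 and Cdk6, moved in opposite directions. Ccnd3 rose: it had 55.2, 55.1 and 57.7 FPKM in PTH libraries, against 40.9, 40.5 and 44.5 FPKM in vehicle libraries, 133% of the vehicle mean (log2 0.41, SE 0.05, limma adjusted p = 0.000845; 0.54 and adjusted p = 0.000341 with centred values). It lies on chromosome 17 from 47505051 to 47599691 (plus strand). Its rise passed without any 1 of the 6 libraries, and the share of genes that rose was 10.8% overall. Ccnd1 had 79.8, 98.4 and 89.7 FPKM with PTH, against 106.3, 142.2 and 125.2 FPKM with vehicle, so library 1 was lowest in both groups, the reverse of the G2/M genes. It fell by 0.47 on the log2 scale (SE 0.12, adjusted p = 0.0153), and did not pass with centred values (adjusted p = 0.0579) although it did with block and centring (adjusted p = 0.000580). Without vehicle 3 its adjusted p was 0.0501. Ccnd2 averaged 33.8 ± 4.38 FPKM with PTH and 43.7 ± 5.58 FPKM with vehicle (SD, n = 3 each; log2 -0.37, SE 0.12, adjusted p = 0.0442). The call was lost with centred values (adjusted p = 0.159) and on leaving out any 1 library other than vehicle 3. Ccnd2 passed with the block (adjusted p = 0.00101) and with block and centring (adjusted p = 0.00598).

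The kinase partners had small differences. Cdk4 was the most abundant member per length, at 314.3 ± 12.3 FPKM with PTH and 342.7 ± 2.78 FPKM with vehicle (SD, n = 3 each), and its difference of -0.13 (SE 0.04, limma adjusted p = 0.0403) was -0.0011 after centring (adjusted p = 0.984). On leaving out any 1 library other than PTH 1 it did not pass. Cdk6 averaged 7.25 ± 1.07 FPKM with PTH and 6.15 ± 0.486 FPKM with vehicle (SD, n = 3 each; log2 0.21, SE 0.11, adjusted p = 0.144), and it passed as higher with centred values (0.34, adjusted p = 0.0480) and with the block (adjusted p = 0.0210).

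Of the E cyclins and Cdk2, Ccne1 fell and the other 2 did not pass. That is 33.3% of these genes, against 41.0% of all tested genes. Ccne1, the Cdk2 partner whose rise marks the G1 to S transition (chromosome 7, 38097984 to 38107534, minus strand), had 3.54, 2.84 and 3.25 FPKM with PTH, against 6.86, 5.03 and 6.92 FPKM with vehicle. PTH cells held 51.2% of the vehicle mean (log2 -0.86, SE 0.13, limma adjusted p = 0.00215; -0.73 and adjusted p = 0.00503 with centred values), the largest fall among the G1/S genes measured. The level of Ccne2, its close relative, averaged 11.8 ± 2.30 FPKM with PTH and 11.6 ± 1.62 FPKM with vehicle (SD, n = 3 each), with a difference of 0.02 (SE 0.16, adjusted p = 0.940). Cdk2 averaged 17.3 ± 0.602 FPKM with PTH and 19.0 ± 0.930 FPKM with vehicle (SD, n = 3 each) and did not pass (adjusted p = 0.0784), but it did with the block (adjusted p = 0.0322; 0.901 with block and centring).

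Of the pocket proteins and E2f1, Rbl1 fell, which is 33.3% of them, against 41.0% of all tested genes. Rbl1, which encodes p107, a pocket protein that is itself an E2F target, had 9.71, 8.74 and 9.12 FPKM with PTH, against 13.2, 12.3 and 11.8 FPKM with vehicle (log2 -0.41, SE 0.06, limma adjusted p = 0.00195; 0.00993 with centred values). Rb1, the retinoblastoma gene, averaged 8.66 ± 0.565 FPKM with PTH and 9.57 ± 0.306 FPKM with vehicle (SD, n = 3 each; log2 -0.14, SE 0.06, adjusted p = 0.0975). E2f1, an activator of replication genes, averaged 13.1 ± 0.770 FPKM with PTH and 13.5 ± 0.532 FPKM with vehicle (SD, n = 3 each; adjusted p = 0.496), and its difference changed sign with centring (-0.05 as deposited and 0.07 centred).

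The licensing genes fell by small and very even amounts. The subunits Mcm2 to Mcm7 form the helicase ring that is loaded at origins in G1 with the help of Cdc6, and all 7 of these genes fell as deposited, by 0.19 (Mcm4) to 0.32 (Mcm7) on the log2 scale, each with non-overlapping groups, against 41.0% of all tested genes that fell. Mcm6 had 46.8, 48.6 and 48.5 FPKM with PTH, against 59.1, 60.6 and 58.8 FPKM with vehicle (log2 -0.31, SE 0.04, limma adjusted p = 0.000864). Mcm7 had 38.2, 38.4 and 36.7 FPKM with PTH, against 48.3, 47.7 and 46.2 FPKM with vehicle (log2 -0.32, SE 0.04, adjusted p = 0.000912). After centring these 2 passed (adjusted p = 0.0110 for Mcm6 and 0.00876 for Mcm7) and the other 5 did not (Mcm2, Mcm3, Mcm4, Mcm5 and Cdc6, adjusted p = 0.129 to 0.223), so 28.6% fell, near the 24.0% of all tested genes.

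Of the 4 genes of nucleotide supply and the replication clamp, 2 fell and 1 rose. Among all tested genes 41.0% fell and 10.8% rose. With centred values 1 fell and 1 rose, against 24.0% and 18.3% of all. Rrm1, the large subunit of ribonucleotide reductase, had 50.1, 48.9 and 46.4 FPKM with PTH, against 65.8, 62.5 and 60.8 FPKM with vehicle (log2 -0.38, SE 0.05, limma adjusted p = 0.00110; 0.00697 with centred values). Rrm2, its S-phase subunit, averaged 29.6 ± 1.88 FPKM with PTH and 36.5 ± 3.04 FPKM with vehicle (SD, n = 3 each; log2 -0.30, SE 0.08, adjusted p = 0.0158), and did not pass with centred values (adjusted p = 0.1003) or without vehicle 3 (adjusted p = 0.0534). With block and centring it passed (adjusted p = 0.00958). Tyms, thymidylate synthase, was the other G1/S gene that rose: 57.0, 50.4 and 54.6 FPKM with PTH, against 48.9, 48.6 and 47.4 FPKM with vehicle (log2 0.16, SE 0.05, adjusted p = 0.0461; 0.28 and adjusted p = 0.00568 with centred values). The deposited call for Tyms was lost on leaving out any 1 library other than PTH 2 (adjusted p = 0.0793 to 0.127). Pcna, the sliding clamp of the replication fork, averaged 126.4 ± 4.79 FPKM with PTH and 124.8 ± 6.57 FPKM with vehicle (SD, n = 3 each; log2 0.02, SE 0.05, adjusted p = 0.787).

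**Figure D4:**
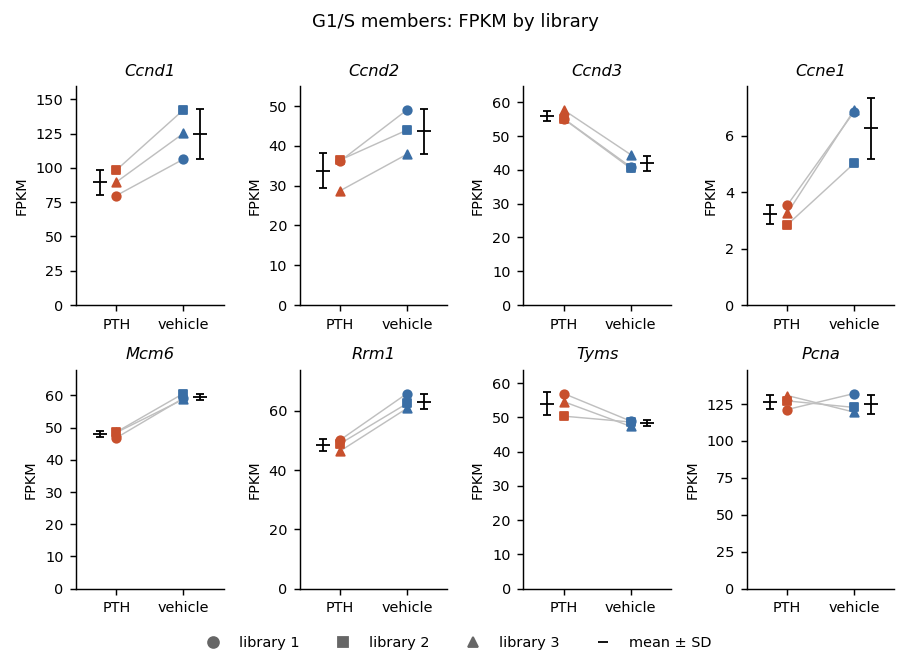
FPKM of 8 G1/S members in each library, PTH on the left and vehicle on the right of each panel, with grey lines joining libraries of the same number and bars for the mean ± SD of 3 libraries. Ccnd3 and Tyms have higher values in all PTH libraries, Ccnd1, Ccnd2, Ccne1, Mcm6 and Rrm1 lower ones, and the groups of Pcna overlap (121.3, 127.2 and 130.8 FPKM with PTH; 132.2, 122.7 and 119.5 FPKM with vehicle).

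The deposited values are per transcript, so the members could also be read by isoform. The 43 genes had 138 transcripts, of which 93 passed the filter. Of 37 G2/M transcripts 16 fell and 0 rose, and of 56 G1/S transcripts 17 fell and 3 rose, against 22.2% lower and 8.13% higher among all 21983 tested transcripts. With the block, 26 G2/M transcripts fell (25.1% of all transcripts lower and 9.43% higher). Unequal change between transcripts (limma's diffSplice, Simes adjusted p) was called in 1 of 20 members with at least 2 tested transcripts, Tyms (adjusted p = 0.000422), against 11.7% of 4818 genes. Its highest transcript, ENSMUST00000146520, had 32.0, 29.7 and 31.8 FPKM with PTH, against 25.7, 26.02 and 25.8 FPKM with vehicle (log2 0.26, SE 0.05, limma adjusted p = 0.00771). The second, ENSMUST00000134298, had 14.99, 11.03 and 14.1 FPKM with PTH, against 13.98, 14.2 and 13.1 FPKM with vehicle (log2 -0.05, SE 0.11, adjusted p = 0.774). A low Tyms transcript, ENSMUST00000154751, also rose (log2 0.68, SE 0.14, limma adjusted p = 0.0129). The other tested Tyms transcripts, ENSMUST00000026846 (log2 -0.05, SE 0.08) and ENSMUST00000141630 (log2 0.10, SE 0.13), did not pass. With the block, Aurkb was called as well (diffSplice adjusted p = 0.0205, background 15.1%): ENSMUST00000021277 fell (log2 -0.61, SE 0.18, limma adjusted p = 0.0483 without the block), while ENSMUST00000108666 had 4.71, 2.57 and 5.85 FPKM with PTH, against 4.95, 1.97 and 5.54 FPKM with vehicle. In the authors' deposited table, whose groups are named only q1 and q2, 12 of the 138 member transcripts were called significant (8.70%, against 7.62% of all 37478 transcripts). Of these 12 in the authors' deposited table, 10 were of G2/M genes, with a log2 of q2 over q1 of -1.31 for Aurka, -1.14 for Cdc20 and -0.92 for Plk1; the other 2 were of Ccne1 (-0.63) and Ccnd3 (0.56). The direction of q2 over q1 is not given by the labels.

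The other genes of both processes were read from lists of known factors. Of 54 other mitotic factors 37 fell and 0 rose (41.0% lower and 10.8% higher among all tested genes), with a median log2 difference of -0.52. With centred values 25 fell (24.0% of all), with block and centring 47 (30.9% of all), with cyclic loess 22 (17.6% of all) and as TPM (FPKM rescaled to one total for all libraries) 23 (9.96% of all). Of these genes 50 of 54 were highest in library 1 of both groups, as were 22.9% of all. The largest falls were in Ccnf, the cyclin F of an SCF ubiquitin ligase (3.79 ± 0.873 FPKM with PTH and 11.1 ± 1.753 FPKM with vehicle, SD, n = 3 each; a log2 difference of -1.44, SE 0.17, limma adjusted p = 0.000650), Sgol2, a shugoshin that guards cohesion at centromeres (log2 -1.30, SE 0.14) and Aspm, a spindle pole protein (log2 -1.26, SE 0.22). Of 40 other replication factors 34 fell and 0 rose (median -0.31; 41.0% lower among all). With centred values 19 fell (24.0% of all), with cyclic loess 17 (17.6% of all) and as TPM 4 (9.96% of all). Gins3, a subunit of the GINS part of the replicative helicase, fell by 0.84 on the log2 scale (SE 0.09), Dbf4, the activator of the Cdc7 kinase that fires origins, by 0.78 (SE 0.08), and Uhrf1, which guides maintenance methylation of new DNA, by 0.67 (SE 0.04).

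Of 4 tested genes for inhibitors of cyclin-dependent kinases, 2 rose and 1 fell, also with centred values, and 3 rose and 1 fell with the block. Among all tested genes 10.8% rose and 41.0% fell as deposited, 18.3% and 24.0% with centred values, and 13.8% and 50.0% with the block. Cdkn1b, which encodes p27, had 58.1, 48.4 and 57.2 FPKM with PTH, against 25.8, 22.9 and 26.6 FPKM with vehicle (log2 1.10, SE 0.09, limma adjusted p = 0.000169). Cdkn1a, which encodes p21, averaged 191.6 ± 8.32 FPKM with PTH and 128.2 ± 11.7 FPKM with vehicle (SD, n = 3 each; log2 0.58, SE 0.07, adjusted p = 0.000945). Cdkn2d, an INK4 inhibitor of Cdk4 and Cdk6, fell by 0.66 on the log2 scale (SE 0.17, adjusted p = 0.0167), and did not pass without PTH 2 or vehicle 3 (adjusted p = 0.0510 and 0.0536). Among 19 other E2F and Rb family regulators 12 fell and 2 rose (41.0% and 10.8% of all), and 7 fell and 2 rose with centred values (24.0% and 18.3% of all). With cyclic loess 5 fell (17.6% of all) and as TPM 1 (9.96% of all). With quantile normalisation 6 fell, where 4891 of all 11628 tested genes were called in either direction. The share that fell in that scaling was not counted apart, so these 6 cannot be set against a background. Lin54, the MuvB subunit that binds the CHR element, had 12.2, 11.3 and 11.4 FPKM with PTH, against 5.94, 5.90 and 5.76 FPKM with vehicle, with no overlap (log2 0.93, SE 0.05, adjusted p = 3.5e-05). E2f8, a repressor of E2F targets, fell by 0.74 on the log2 scale (SE 0.06) and Cdc25a, the phosphatase that activates Cdk2, by 0.54 (SE 0.06).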

How the data were processed

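RNA-seq libraries (a stranded mRNA kit) were sequenced as paired ends, and the authors estimated transcript FPKM with Cufflinks, per the labels' protocols; the submitters' processing notes name mm10. Which aligner, annotation and versions they used is not given in the sources used here. Per the file headers, the same deposited table carries the authors' own comparison, which gives each transcript a log2 ratio with its p-value and q-value. FPKM are not counts and the depth is unknown, so no counting interval is given. FPKM totals ranged from 618221 to 853916 per library. One line held no values.

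Transcript FPKM were summed per symbol (0 members had more than 1 gene identifier). The 11628 genes and 21983 transcripts with a mean of at least 1 FPKM were fitted with limma 3.58.1 (R 4.3.3; lmFit, eBayes with trend) as log2(FPKM + 0.5), two-sided, with Benjamini-Hochberg adjustment over all tested and a threshold of 0.05. The fits were also run on simulated data with changes of random sign in few features and no shift between libraries. The outcome is not given here, and such data cannot test the effect of the scaling. At most 0.138% of genes had the same value in any 2 libraries. Same-numbered libraries deviated together (correlations 0.422, 0.275 and 0.285), so the numbers were taken to pair the libraries; the labels do not say what a number marks. The block is an alternative fit. Coordinates are from GENCODE M21 (mm10), 1-based, and promoters from RefSeq (GRCm38.p6, first entry per symbol). Python 3.11.15, pandas 2.3.3 and matplotlib 3.10.9 were used.

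Members, lists and tests were chosen with earlier results of these data known. Values per library are given for members past the threshold with a difference of at least 0.5, or past it in deposited and centred values; from each further list, up to 3 genes with the largest difference past it in both. Other members shown per library (Aurkb, Ccnd1, Ccnd2, Cdk1, Pcna and Top2a) and transcripts of Aurkb and Tyms were chosen after their values were seen. Alternatives were another pseudocount or filter, median centring, quantile normalisation, cyclic loess, TPM, the highest transcript only, the block, and leaving out libraries.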

Additional observations from a re-analysis of the deposited data

How the results depend on the processing

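Depth is unknown, so low genes carry no counting limit. Over 814 alternative values of the 43 members, 653 kept direction and side of the threshold, 115 lost the call, 22 gained one and 24 changed sign; 0 of the sign changes were in members called as deposited. The count of all called genes was 6017, and 2018 as TPM. G1/S falls numbered 14 of 22 (41.0% of all tested genes fell), against 5 with centred libraries (24.0% of all). They numbered 8 with the replicate block and centring (30.9%), 7 with cyclic loess (17.6%) and 1 as TPM (9.96%). Without both number-1 libraries and centred, 6 fell (19.0% of all, a setting chosen after seeing the data). G1/S rises numbered 2 (10.8% of all tested genes rose), against 1 as TPM and 1 without both number-1 libraries. Without single libraries they numbered 1 to 2 (1 without PTH 1, PTH 3 or any vehicle library). The share of all genes that rose was not counted as TPM or without libraries. G2/M falls numbered 16 of 21 (41.0% of all tested genes fell), against 10 centred (24.0% of all), 8 with cyclic loess (17.6%) and 11 as TPM (9.96%). Without single libraries G2/M falls numbered 9 to 20. They numbered 9 without PTH 2 or PTH 3, where 34.3% and 34.8% of all tested genes fell. They numbered 20 without PTH 1, where the share of all genes was not counted. Of member transcripts 36 were called, 21 when centred, and 20 to 32 without single libraries (20 without PTH 3). Among all tested transcripts 22.2% fell and 8.13% rose as deposited. The shares when centred or without single libraries were not counted, so those transcript counts cannot be set against a background. The cause of the changes between settings was not tested. Blocked gene counts stand in the report. With the replicate block 5 G1/S transcripts rose, against 3 without it (9.43% and 8.13% of all tested transcripts rose). With centred values, 34 member transcripts were called with the block and 21 without it, settings where the share of all transcripts was not counted. Gene falls numbered 6 against 2 among A and B cyclins with Cdk1 and its regulators, and 2 against 0 among D cyclins and their kinases. Among all tested genes 30.9% fell with the block and 24.0% without it. Sign changes, all of values that did not pass as deposited (log2 PTH minus vehicle), were as follows. With centred libraries, with or without the replicate block, Cdk1 was 0.026 and E2f1 0.073. With quantile normalisation Rb1 was 0.0042, E2f1 0.069 and Pcna -0.067. With cyclic loess Cdk2 was 0.019, Rb1 0.073 and E2f1 0.13. As TPM E2f1 was 0.039. With the highest transcript only Ccne2 was -0.13, Rb1 0.071 and E2f1 0.083. Without both number-1 libraries and centred, Cdk2 was 0.029, Rb1 0.0505, E2f1 0.023 and Cdk1 0.0031. Without single libraries Ccne2 ranged from -0.083 to 0.18, Pcna from -0.011 to 0.061 and Cdk1 from -0.22 to 0.028.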
